A study of Saccharomyces cerevisiae with 12 samples.

Results

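The genes described here code for the factors that assemble ribosomes in *Saccharomyces cerevisiae*, chosen by name: every gene whose standard symbol in the R64 annotation is NOP, NOC, NSA, UTP, RRP, RPF or ESF followed directly by a number. The rule found 62 of the 6600 features of the count table, 17 of them NOP genes, 18 RRP, 18 UTP, 3 NOC, 2 NSA, 2 RPF and 2 ESF, and all 62 passed the filter on low values that left 5909 genes. They were measured by RNA-seq in 12 libraries, 3 flask cultures for each of 4 conditions. BY4741 is a haploid laboratory strain that carries deletions in *HIS3*, *LEU2*, *MET17* and *URA3*. It was grown for 20 h at 30 °C in medium given as 5% YPD (yeast, peptone and dextrose). The cultures had no PeAfpA (control) or the continuous presence of 1, 2 or 4 µg/mL PeAfpA. PeAfpA is a small cationic antifungal protein secreted by the mould *Penicillium expansum*. All libraries thus share 1 strain, 1 medium and 1 time point, and each level is that of a whole culture, in which a change per cell and a change in the make-up of the culture cannot be told apart.

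Ribosomes are assembled in the nucleolus from a long precursor RNA made by RNA polymerase I. Small nucleolar ribonucleoproteins (snoRNPs) modify this RNA, a very large particle called the small-subunit (SSU) processome forms on its 5′ part, and a separate set of factors folds and cuts the part that becomes the large subunit (LSU). Growing yeast spends much of its transcription on this pathway, and its genes are known to be switched together by nutrients and by the TOR and protein kinase A pathways. By known role, 29 of the 62 members belong to the small subunit: 6 to the UTP-A complex, 4 to UTP-B, 2 to UTP-C and 17 to the rest of the processome. A further 18 act in the large subunit and 3 in both subunits. Core proteins of box C/D snoRNPs account for 3 members, and 1 is a core protein of box H/ACA snoRNPs. Another 7 are subunits of the RNA exosome, the 3′ to 5′ nuclease that trims precursor RNA. NOP13 was given no role. Symbols and roles do not match fully: NOC4 carries a symbol counted here with the large subunit but works in the small one.

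Promoters of this pathway in yeast are known for a pair of short motifs, PAC, bound by the repressors Dot6 and Tod6, and RRPE, bound by Stb3. The core of PAC (GATGAG), the longer PAC (GCGATGAG, which contains the core) and RRPE (AAAATTTT) were searched on both strands of the 300 bases before each start codon in the R64 genome. The PAC core was found before 50 of the 62 members (80.6%) and before 18.6% of the 5916 protein-coding genes with a full window. The longer PAC stood before 26 members (41.9%) and 4.11% of all genes, and RRPE before 38 members (61.3%) and 9.53% of all genes. Both the PAC core and RRPE were present before 32 members (51.6%), against 4.51% of all genes. The genes of the 138 cytosolic ribosomal proteins, the building blocks that these factors put together, had the PAC core in 11.6% and RRPE in 6.52% of their windows. A match is only a run of letters and does not show that a factor binds there.

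The windows printed here hold all matches of 9 members. These are the snoRNP core proteins among the members and the members that rose most at 4 µg/mL, the single member called lower (NOP19), and RPF1, which carries both motifs and hardly moved. They are R64 sequences on the coding strand, 5′ to 3′, with 12 flanking bases on each side; capitals mark the PAC core (GATGAG or, read from the other strand, CTCATC) and RRPE. NOP1 lies at chrIV:427127-427177 (+), NOP56 at chrXII:545913-546006 (+), NOP58 at chrXV:898456-898507 (-), NOP10 at chrVIII:241539-241568 (+) and ESF1 at chrIV:1206485-1206579 (-). RRP12 lies at chrXVI:529496-529576 (+), UTP10 at chrX:217392-217437 (-), NOP19 at chrVII:995502-995531 (+) and RPF1 at chrVIII:281372-281413 (+).
NOP1: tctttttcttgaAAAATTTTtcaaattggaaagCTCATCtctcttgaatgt
NOP56: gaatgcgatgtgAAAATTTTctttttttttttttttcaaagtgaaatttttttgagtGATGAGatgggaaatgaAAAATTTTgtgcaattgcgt
NOP58: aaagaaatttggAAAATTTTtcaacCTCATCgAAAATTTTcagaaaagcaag
NOP10: tttcaagttatgCTCATCactcttttatta
ESF1: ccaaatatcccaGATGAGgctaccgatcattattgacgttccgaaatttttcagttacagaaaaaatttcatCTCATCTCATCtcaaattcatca
RRP12: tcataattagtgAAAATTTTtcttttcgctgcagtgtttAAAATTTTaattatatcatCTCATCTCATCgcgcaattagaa
UTP10: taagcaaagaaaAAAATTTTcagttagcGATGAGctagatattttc
NOP19: gcaatttctagcGATGAGattggaaaaact
RPF1: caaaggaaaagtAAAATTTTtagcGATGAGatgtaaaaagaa
In NOP1, RRP12, UTP10 and RPF1 an RRPE precedes the PAC core, in NOP56 and NOP58 the PAC core lies between RRPE matches, and NOP10, ESF1 and NOP19 hold no RRPE.

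Most matches lay between 80 and 180 bases before the start codon. The 77 matches of the PAC core had centres 35.5 to 289.5 bases before it with a median of 116.5, and 56 of them (72.7%) lay in that span, as did 44.4% of the 1314 matches before all genes. The 47 RRPE matches had their median at 129.5 bases, with 39 (83.0%) in the same span, against 59.5% of 608 before all genes. The span was chosen after the positions were seen, and the difference was not tested. Groups within the members differed in their matches: each of the 7 NOC, NSA and RPF genes had an RRPE, but only 1 of the 7 exosome genes (RRP6) did, and 3 of those 7 had a PAC core.

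**Figure D1:**
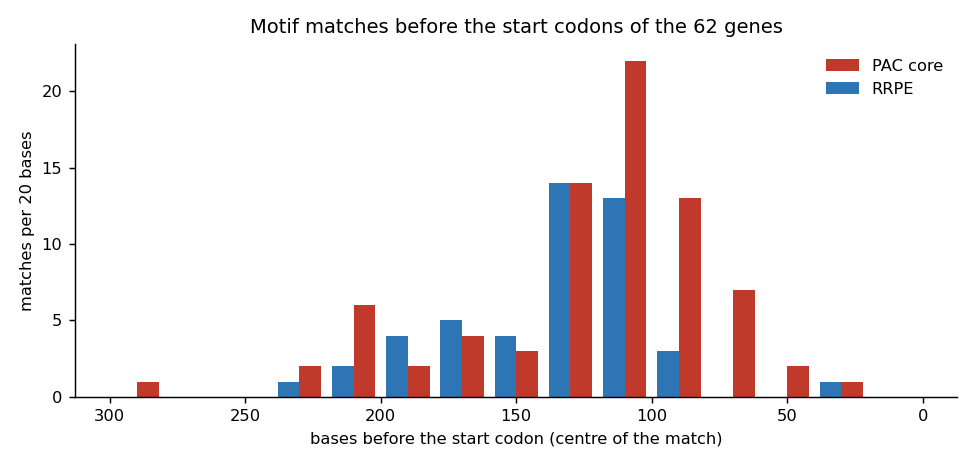
Number of motif matches in bins of 20 bases (vertical axis) against the distance of the centre of each match from the start codon, in bases (horizontal axis), over the 62 members; red bars are the PAC core, blue bars RRPE. Of the 77 PAC core matches, 56 lie between 80 and 180 bases, as do 39 of the 47 RRPE matches.

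Depth was similar in all libraries, with totals of 7153797 to 10270183 counts, of which the members took 69745 to 107074 (0.802% to 1.07%). As a check of the strain, *LEU2*, *URA3* and *MET17* had 0 counts in the 12 libraries and *HIS3*, whose deletion is partial, had 381 to 649. Some libraries stood apart: the TMM factor, which scales each library, was 0.808 in 4 µg/mL replicate 3 and 0.846 in 1 µg/mL replicate 1 and 0.990 to 1.12 in the others. The same 2 libraries had higher ribosomal protein mRNAs than their replicates, with mean log2 differences from control of 1.65 and 0.64, against 0.39 and 0.70 in the other replicates at 4 µg/mL and 0.09 and 0.07 at 1 µg/mL. No member has a near-identical copy (95% identity over at least 100 bases) or overlaps another gene of the RefSeq annotation. The 683 features of the count table that this annotation lacks were not placed, so overlaps with them were not examined. The labels call the material mycelia, although BY4741 grows as a budding yeast.

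In the control cultures the members were expressed above the typical gene. Their levels, in TPM (counts scaled by gene length and depth), ranged from 9.71 to 1033 with a median of 86.1, and 41 of the 62 lay above the median of all genes tested, 62.2 TPM. The highest was NOP10, with 1033 ± 30.0 TPM (SD, n = 3), followed by NOP16 with 391 ± 56.6 TPM, a factor of the large subunit, NOP1 (334 ± 83.6 TPM), NOP15 (313 ± 54.1 TPM) and RRP14 (271 ± 76.4 TPM). NOP10 was beyond the spread of the others, whereas NOP16, NOP1 and NOP15 did not differ beyond theirs. At 4 µg/mL the members' median was 74.4 TPM against 48.2 TPM for all genes, and 48 members lay above the latter. As for the spread among replicate flasks, the median coefficient of variation of the members was 13.9% in control, 12.4% at 1, 13.5% at 2 and 10.95% at 4 µg/mL, against 12.2%, 16.9%, 13.3% and 15.2% over all genes.

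At 4 µg/mL PeAfpA, 14 of the 62 members were upregulated and 1 was downregulated against control, by edgeR's quasi-likelihood test at an adjusted p of 0.05 over all genes. The upregulated members were ESF1, NOP1, NOP4, NOP7, NOP10, NOP13, NOP56, NOP58, RRP1, RRP12, UTP4, UTP10, UTP20 and UTP21, and the downregulated one was NOP19. The 14 are 22.6% of the members, close to the 19.3% of all genes tested that were upregulated. The 1 downregulated member is 1.61%, against 23.0% of all genes. In either direction 24.2% of the members were called, against 42.2% of all genes, and 21 members had an unadjusted p under 0.05, as had 51.2% of all genes. Their log2 fold changes ran from -0.59 (RRP36, not called) to 1.06 (ESF1), with standard errors of 0.11 to 0.29. Their median was 0.21, against -0.04 over all genes. When libraries were scaled by their totals alone the members' median was 0.00 and that of all genes -0.24, which left the distance between them at 0.24 with either scaling. With that scaling 5 members were called higher and 2 lower, as 756 genes rose and 1569 fell in all, in place of 1139 and 1357. The groups did not overlap for 18 members that were higher (27.4% of all genes) and for 8 that were lower (31.7% of all genes; 59.1% in either direction).

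How many members were called depended on single libraries. Without 4 µg/mL replicate 3 or without control replicate 2, 4 members were upregulated, without control replicate 3 there were 5, and without 4 µg/mL replicate 2 there were 9. Over all genes, 664, 764, 683 and 941 were upregulated in these 4 fits, in the same order, against 1139 with all libraries. ESF1, NOP1, NOP10 and RRP1 were called in each of the 21 fits made, and no called member changed its direction in any of them. Each of the other 11 calls was lost without 4 µg/mL replicate 3 and without control replicate 2, and their largest adjusted p over the 21 fits ran from 0.057 (UTP21) to 0.197 (UTP4). DESeq2 called 16 members higher and 1 lower (23.1% and 22.7% of all genes), and limma-voom 19 and 4 (26.7% and 32.2% of all genes).

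**Figure D2:**
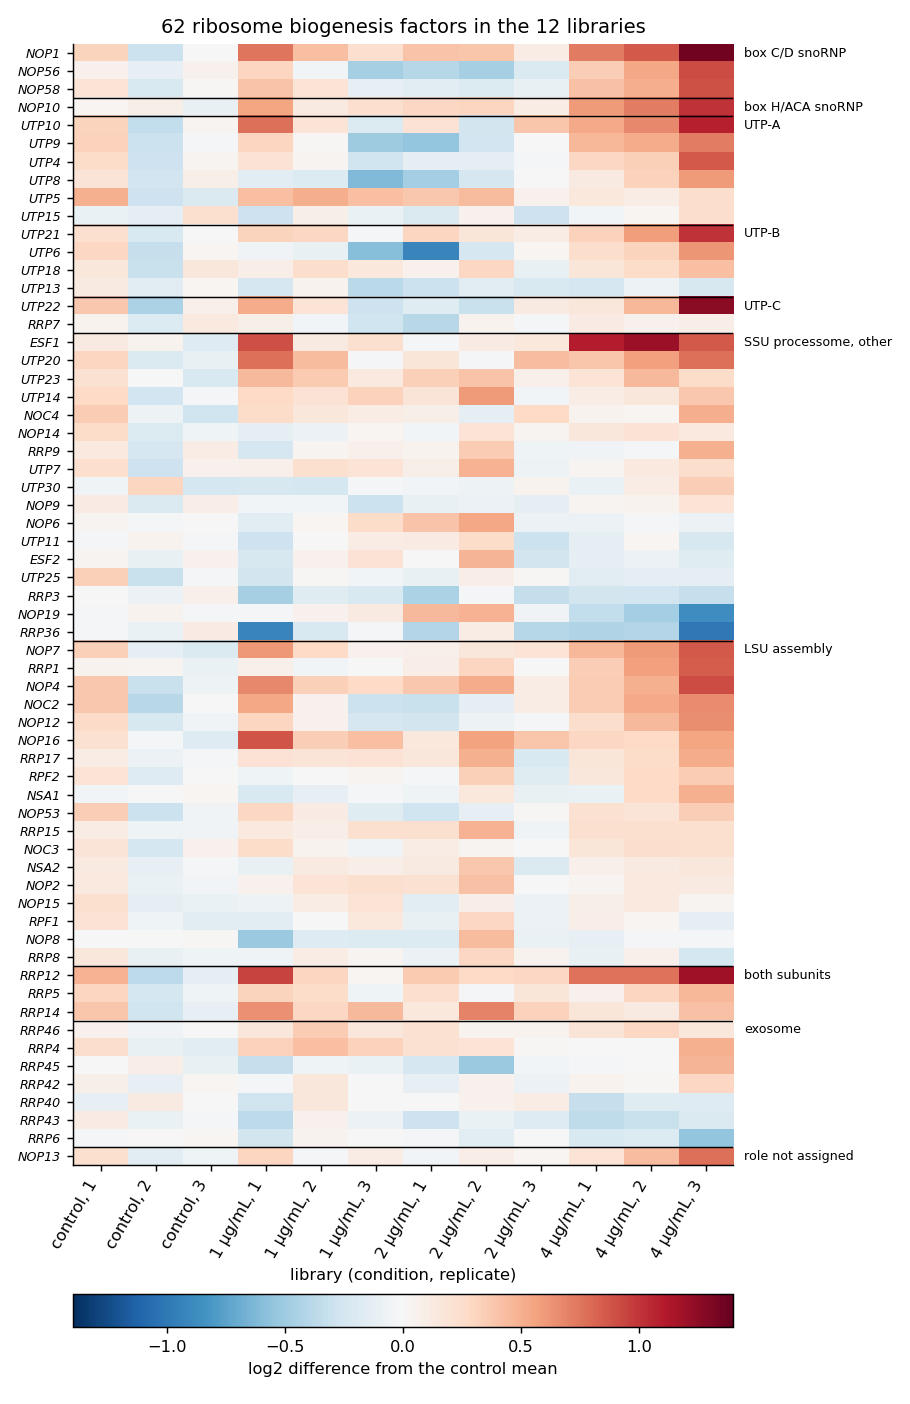
Log2 difference of the normalized count from the control mean (colour; red higher, blue lower) for the 62 members (rows, grouped by role) in the 12 libraries (columns, by condition and replicate). The 3 libraries of 4 µg/mL are red for NOP1, NOP10, ESF1 and RRP12, and the single called fall, NOP19, is blue in all 3.

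Among the role groups with more than 1 member, only that of box C/D snoRNP core proteins had every member called: all 3 were upregulated at 4 µg/mL. The only box H/ACA member, NOP10, was upregulated too. Further snoRNP subunits that the name rule misses are counted below. Box C/D snoRNPs place 2′-O-methyl groups on ribosomal RNA; NOP1 (fibrillarin) is their methyltransferase, and NOP56 and NOP58 are the paired scaffold proteins. Normalized counts (counts scaled to a common library size) of NOP1 were 3565, 2342 and 2857 in the 3 control replicates, 4847, 3845 and 3384 at 1 µg/mL, 3794, 3754 and 3102 at 2 µg/mL and 4759.5, 5212 and 7361 at 4 µg/mL. Every library of 4 µg/mL lay above every control library, with 1 µg/mL replicate 1 slightly above the lowest of them. NOP1 rose by 0.98 ± 0.23 on the log2 scale (± SE; adjusted p = 0.0062). NOP56 stood at 3602, 3200.4 and 3599 in control, 4267, 3368 and 2513 at 1, 2630.4, 2508 and 3010.1 at 2 and 4397, 5024 and 6530.4 at 4 µg/mL. Its libraries of 2 µg/mL were the lowest group, below all of control, and those of 4 µg/mL were above all others. The rise at 4 µg/mL was 0.62 ± 0.21 (adjusted p = 0.0356), and NOP56 was called in 13 of the 21 fits, with a largest adjusted p of 0.116 without 4 µg/mL replicate 3. NOP58 gave 2381, 1802 and 2115 in control, 2756, 2383 and 1934 at 1, 1875, 1832 and 1937 at 2 and 2776, 2975 and 3866 at 4 µg/mL, again with no overlap between control and 4 µg/mL. It rose by 0.61 ± 0.18 (adjusted p = 0.0184).

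NOP10, a small protein that joins Cbf5 in the box H/ACA particle for pseudouridylation, had the smallest standard error of the 4. Its counts were 1663, 1731 and 1524 in control, 2404, 1790.1 and 1932 at 1, 1999, 2023 and 1759 at 2 and 2484, 2685 and 3299 at 4 µg/mL. Here the control libraries were below all 9 treated libraries, and those of 4 µg/mL were above all others. The difference between 4 µg/mL and control was 0.78 ± 0.16 (adjusted p = 0.00355), whereas those at 1 and 2 µg/mL were 0.32 ± 0.16 (adjusted p = 0.55) and 0.23 ± 0.16 (adjusted p = 0.64). As in all comparisons of 3 against 3 libraries, an exact two-sided permutation test of these counts cannot go below p = 0.1, the value it gave for each of the 4 genes at 4 µg/mL. Among 13 further snoRNP and exosome subunits outside the name rule, 4 were upregulated (30.8%, against 19.3% of all genes) and none was downregulated. The median over all 13 was -0.02. This list was not divided into snoRNP and exosome subunits.

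**Figure D3:**
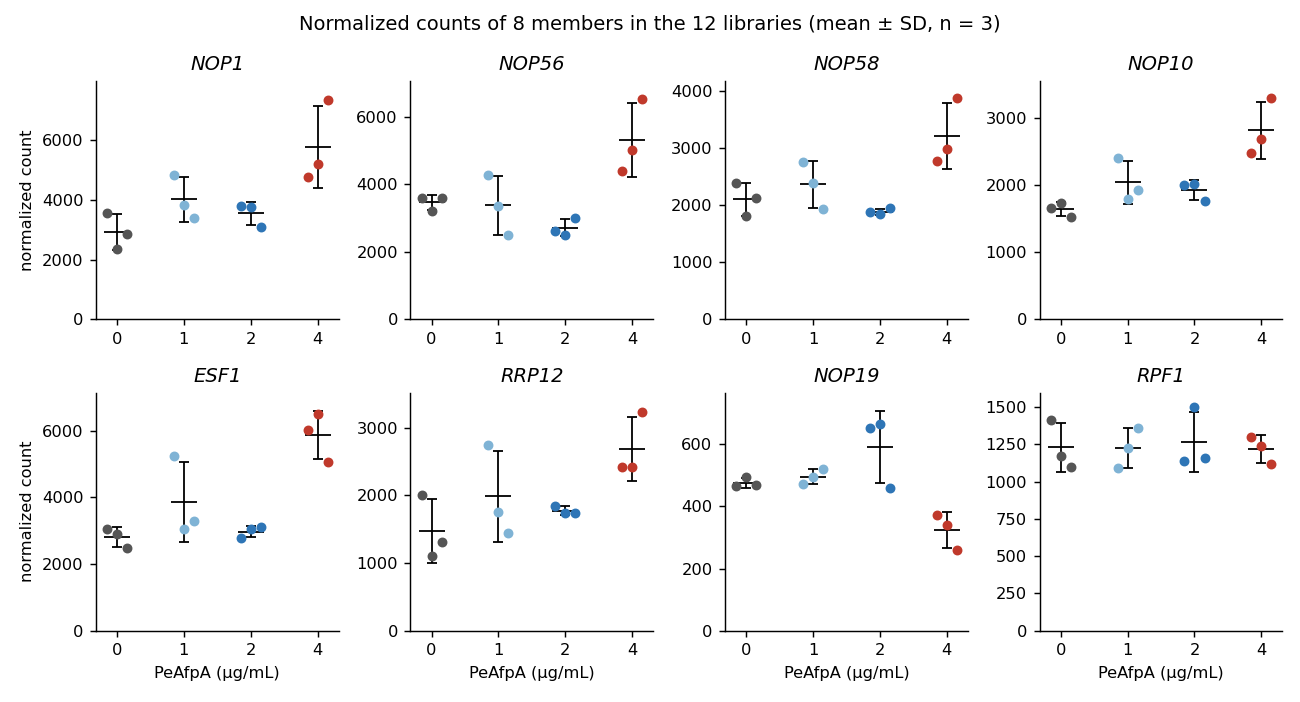
Normalized counts (vertical axes, starting at 0) of 8 members against the PeAfpA concentration in µg/mL (horizontal axes). Points are libraries, long bars the mean and whiskers the SD of 3 replicates. The points of 4 µg/mL lie above those of control for NOP1, NOP56, NOP58, NOP10, ESF1 and RRP12, below them for NOP19, and among them for RPF1.

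In the small subunit by symbol, 5 of the 20 UTP and ESF genes were upregulated at 4 µg/mL (25.0%, against 19.3% of all genes). None was downregulated, and the median was 0.28. ESF1, a nucleolar protein needed to make 18S rRNA, had the largest difference of all members. Its counts were 3066, 2904 and 2484 in control, 5244, 3066 and 3283 at 1, 2779.7, 3045 and 3102 at 2 and 6032, 6498 and 5074 at 4 µg/mL. At 2 µg/mL it lay close to the controls. At 1 µg/mL replicate 1 was raised most and replicate 3 lay above all controls. Replicate 2 was only just above the highest of them (3066.4 against 3065.6). The 3 libraries of 4 µg/mL were about 2.08 times the controls. The log2 fold change was 1.06 ± 0.22 (adjusted p = 0.00336). ESF2, its namesake and a partner of the helicase Dbp8, did not follow: it gave 735, 663 and 747 in control, 610.2, 747 and 821 at 1, 719, 989.7 and 598 at 2 and 653, 673 and 633 at 4 µg/mL. These ranges overlapped, and the difference was -0.13 ± 0.17 (adjusted p = 0.56).

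UTP-A, UTP-B and UTP-C are the subcomplexes that load onto the precursor RNA early. Of the 6 UTP-A members, UTP10 and UTP4 were upregulated and the group median was 0.42. UTP10, a very long repeat protein, counted 985, 626 and 818 in control, 1354, 907 and 696 at 1, 919, 668 and 1045 at 2 and 1149, 1267 and 1689.7 at 4 µg/mL. Control and 4 µg/mL did not overlap, but 1 µg/mL replicate 1 lay within the range of 4 µg/mL. Its rise was 0.76 ± 0.26 (adjusted p = 0.0322). UTP4 rose by 0.50 ± 0.19 (adjusted p = 0.046), and it was called in 11 of the 21 fits. UTP9 had a fold change as large, 0.55 ± 0.22, without passing the threshold (adjusted p = 0.0575). UTP5, UTP8 and UTP15 had 0.12, 0.35 and 0.07. NAN1, the UTP-A subunit that the name rule misses, was upregulated too (0.71 ± 0.26, adjusted p = 0.0465).

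In UTP-B, UTP21 was the only 1 of 4 members called. It counted 996, 736 and 849.7 in control, 1064, 1044 and 839 at 1, 1056, 959 and 915 at 2 and 1066, 1282 and 1723 at 4 µg/mL, the latter above all other libraries. The rise was 0.66 ± 0.18 (adjusted p = 0.0137). UTP6, UTP13 and UTP18 had 0.38, -0.18 and 0.27, and the UTP-B subunits with other names, PWP2 and DIP2, had 0.41 ± 0.20 (adjusted p = 0.11) and 0.48 ± 0.21 (adjusted p = 0.0834). For UTP-C, UTP22 had 0.66 ± 0.29 (adjusted p = 0.0837) and its partner RRP7 0.08 ± 0.15. UTP22 had the largest coefficient of variation of all members at 4 µg/mL (41.4%), with counts of 914, 1133 and 1964: replicate 3 alone was far above the control values of 1064, 602 and 863.

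Among the 17 other processome members, ESF1 and UTP20 were upregulated and NOP19 was downregulated. UTP20, a further giant repeat protein of the particle, rose by 0.57 ± 0.21 (adjusted p = 0.0425). NOP19 belongs to the earliest small-subunit particle and was the only member called lower. Its normalized counts were 465, 493 and 468 in control, 471, 495 and 520.4 at 1, 653, 664 and 459 at 2 and 374, 340.2 and 260.1 at 4 µg/mL. The 3 libraries of 4 µg/mL were below the other 9, and 2 of the 3 libraries of 2 µg/mL were the highest. The fall was -0.55 ± 0.17 (adjusted p = 0.0218); it was called in 18 of the 21 fits, and not without control replicate 2, control replicate 3 or 4 µg/mL replicate 3. RRP36 had a difference as large, -0.59 ± 0.23, that did not pass (adjusted p = 0.0586), with counts of 748, 713 and 821 in control and 566, 570.4 and 380.0 at 4 µg/mL.

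In the U3-bound core of the processome, the genes with other names listed next were not called. MPP10, IMP3 and IMP4, which form 1 complex, had 0.06, -0.20 and 0.07, and SAS10, FCF1 and BUD21 had 0.24, -0.07 and 0.25, with adjusted p values of 0.26 to 0.75. Over all 40 small-subunit factors outside the name rule, 4 were upregulated (10.0%) and 1 was downregulated (2.5%), with a median of 0.09. The shares of all genes were 19.3% and 23.0%.

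In the large subunit by symbol, none of the 7 NOC, NSA and RPF genes was called at 4 µg/mL, although 19.3% of all genes were upregulated. By edgeR none had even an unadjusted p under 0.05; DESeq2 called 0 with 1 under that unadjusted limit, and limma-voom called 1 (NOC2) with 2. edgeR called NOC2 as well without control replicate 1, and NSA1 without 4 µg/mL replicate 1. NOC2, which pairs with Mak21 in early and with NOC3 in later particles, counted 2039, 1193 and 1575 in control, 2286, 1630.4 and 1273 at 1, 1259, 1438 and 1682 at 2 and 2002, 2266 and 2480.3 at 4 µg/mL. Control replicate 1 lay among the libraries of 4 µg/mL, and the difference was 0.49 ± 0.23 (adjusted p = 0.11). MAK21, also known as NOC1 but outside the rule by its standard name, was upregulated (0.60 ± 0.20, adjusted p = 0.0301), with 1885, 1294 and 1339 in control and 1973, 1975 and 2919 at 4 µg/mL. NOC3 stood at 929, 690.5 and 853 in control, 979, 849.6 and 789 at 1, 878, 841 and 817 at 2 and 918, 968 and 955 at 4 µg/mL, with control replicate 1 above the lowest library of 4 µg/mL and a difference of 0.20 ± 0.13 (adjusted p = 0.23). NOC4, the partner of NOP14 in the small subunit, gave 803, 598 and 517 in control, 749, 699 and 675 at 1, 667, 572 and 763 at 2 and 653, 642 and 894 at 4 µg/mL, with a difference of 0.19 ± 0.18 that became -0.02 when libraries were scaled by their totals alone.

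NSA1 and NSA2 are factors of middle large-subunit particles. NSA1 counted 655, 676 and 687 in control, 578, 620.2 and 662 at 1, 644, 745 and 627 at 2 and 631, 815 and 951 at 4 µg/mL. Here 4 µg/mL replicate 1 was below all controls while its other replicates were above them, and the difference was 0.25 ± 0.15 (adjusted p = 0.19). NSA2 gave 1653, 1404 and 1499 in control, 1409.8, 1655 and 1611 at 1, 1648, 1962 and 1318 at 2 and 1587, 1652 and 1689.7 at 4 µg/mL, which overlap in each condition; its difference was 0.11 ± 0.15, and -0.08 with scaling by totals alone. RPF2, which with Rrs1 brings in the 5S RNA particle, counted 1472, 1138 and 1288 in control, 1235, 1299 and 1323 at 1, 1274, 1624 and 1146 at 2 and 1439, 1568 and 1655 at 4 µg/mL. Control replicate 1 again reached into the range of 4 µg/mL, for a difference of 0.26 ± 0.15 (adjusted p = 0.18). RPF1, a related factor of the large subunit, had the smallest difference of the members, -0.01 ± 0.15, whose sign changed with the tool. Its counts were 1409.6, 1174 and 1101 in control, 1092, 1228 and 1356 at 1, 1138, 1498 and 1158 at 2 and 1301, 1240.0 and 1118 at 4 µg/mL. The 3 libraries of 4 µg/mL all fell within the control range for this gene.

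By role instead of symbol, 3 of the 18 large-subunit members were upregulated (16.7%, against 19.3% of all genes): RRP1, NOP7 and NOP4. None was downregulated. RRP1, a nucleolar protein required for 27S processing, counted 545, 540.0 and 494 in control, 551, 512 and 527 at 1, 559, 646 and 522 at 2 and 666, 782 and 949 at 4 µg/mL. The 3 libraries of 4 µg/mL were above the other 9, and the rise was 0.60 ± 0.14 (adjusted p = 0.00696). NOP7, the yeast pescadillo protein, gave 2717, 1957 and 1876 in control, 3284, 2608 and 2241 at 1, 2261, 2397 and 2455 at 2 and 2973, 3259.8 and 3919 at 4 µg/mL. Only 1 µg/mL replicate 1 and the libraries of 4 µg/mL lay above all controls, and it rose by 0.63 ± 0.19 (adjusted p = 0.0213). NOP4, an RNA-binding protein, counted 1852, 1142 and 1358 in control, 2261, 1786 and 1724 at 1, 1849.7, 2041 and 1524 at 2 and 1813, 2004 and 2679 at 4 µg/mL. Control and 4 µg/mL overlapped, by control replicate 1, and the rise of 0.58 ± 0.21 was the closest to the threshold but for UTP4 (adjusted p = 0.044). Over the 53 large-subunit factors outside the name rule, 8 were upregulated (15.1%) and 1 was downregulated (1.89%), with a median of 0.22. The shares of all genes were 19.3% and 23.0%.

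RRP12, an export factor of both subunits, had the largest rise among the RRP genes. Its counts were 2007, 1105 and 1313 in control, 2749, 1757 and 1452 at 1, 1848, 1738 and 1739 at 2 and 2421, 2414 and 3240.3 at 4 µg/mL. Control and 4 µg/mL did not overlap, but control replicate 1 was far above its fellow replicates and 1 µg/mL replicate 1 lay within the range of 4 µg/mL. The rise was 0.87 ± 0.26 (adjusted p = 0.0183). RRP5 and RRP14, which also serve both subunits, had 0.26 ± 0.17 and 0.21 ± 0.22. None of the 7 exosome genes was called by edgeR at 4 µg/mL, with 2 at an unadjusted p under 0.05, and DESeq2 called 0 with 1 under that limit. RRP43 was called lower by limma-voom and by edgeR with library size alone, and RRP46 higher by limma-voom. Their log2 fold changes lay between -0.31 (RRP6, the nuclear nuclease) and 0.21 (RRP46). NOP13, whose role was not assigned, rose by 0.47 ± 0.16 (adjusted p = 0.0322) with overlapping groups.

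**Figure D4:**
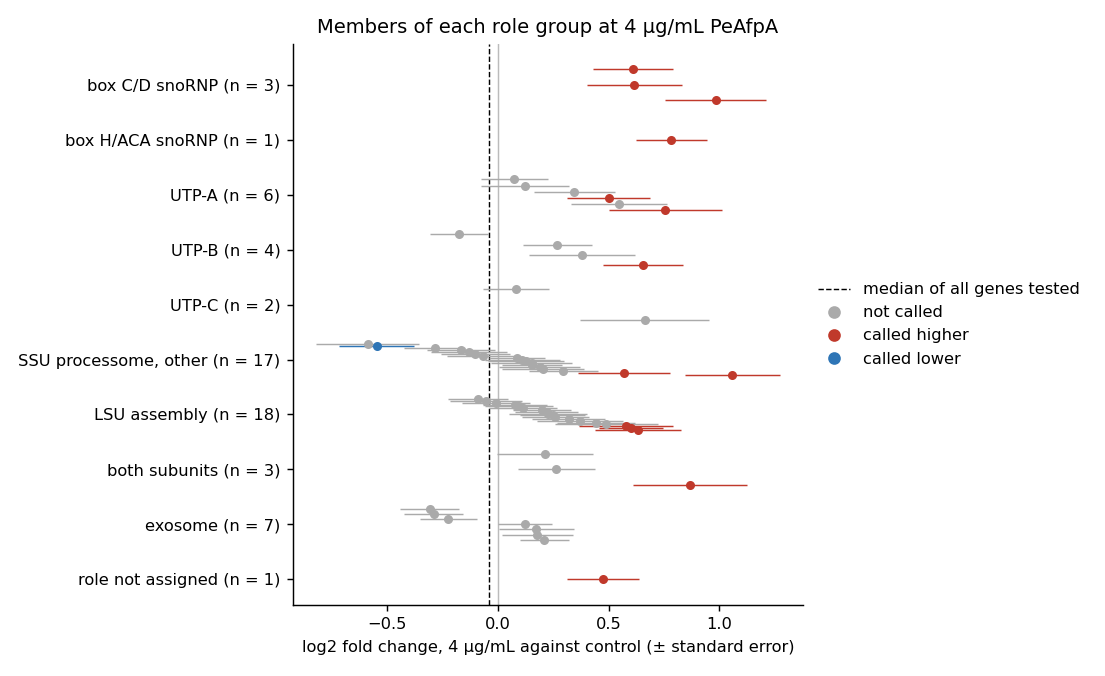
Log2 fold change of each member at 4 µg/mL against control (horizontal axis; whiskers are ± 1 standard error), by role group (vertical axis). Red points were called higher, the blue point lower, grey points not; the dashed line is the median of all genes tested, -0.04. All 4 genes of snoRNP core proteins are red and all 7 exosome genes grey.

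Set against each other, the small-subunit and large-subunit members did not part clearly. By symbol the median was 0.28 over 20 UTP and ESF genes and 0.20 over 7 NOC, NSA and RPF genes, a difference of 0.08. By role it was 0.15 over 29 and 0.24 over 18 members, a difference of -0.08, so the order turned with the way of sorting. For each library, the mean of the log2 counts of the UTP and ESF genes minus that of the NOC, NSA and RPF genes, set to 0 at the control mean, was 0.06, 0.08 and 0.13 in replicates 1 to 3 of 4 µg/mL. It was 0.00, -0.04 and 0.04 in control, 0.10, 0.08 and -0.07 at 1 µg/mL and -0.03, -0.05 and 0.03 at 2 µg/mL. Thus 4 µg/mL lay above control in all 3 libraries but within the range reached at 1 µg/mL except in replicate 3. By role the same measure was -0.07, -0.09 and -0.08 at 4 µg/mL and -0.02, -0.03 and 0.05 in control. It was -0.10, -0.02 and -0.10 at 1 µg/mL and -0.05, -0.15 and -0.01 at 2 µg/mL. The values of 4 µg/mL thus lay below control in all 3 libraries but within the range of each lower concentration. Members are not replicates of a condition, so these differences were given no test.

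The mean log2 difference over the 62 members was 0.13, 0.22 and 0.36 in the 3 libraries of 4 µg/mL. In control it was 0.17, -0.15 and -0.03, so control replicate 1 lay above 4 µg/mL replicate 1. At 1 µg/mL it was 0.13, 0.11 and 0.00, and at 2 µg/mL -0.01, 0.14 and 0.00. The ribosomal proteins moved further in the same libraries: 123 of 138 were upregulated at 4 µg/mL (89.1%, against 19.3% of all genes). Their median log2 fold change was 1.04, and their order among the replicates (0.39, 0.70 and 1.65) was that of the members after TMM scaling. Before scaling, the members' share of all counts was 1.04%, 1.07% and 0.989% in these replicates, lowest in replicate 3. The TMM factors were 1.03, 0.990 and 0.808, and their part in the members' order was not tested. In a list of 12 glucose-repressed genes of carbon metabolism, 11 were downregulated (91.7%, against 23.0% of all genes). The remaining 1 was upregulated, with a log2 fold change of 1.98. The mean of this list went in the opposite order to the ribosomal proteins in these libraries (-3.88, -4.69 and -5.54). The part of either in the members' values was not tested.

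**Figure D5:**
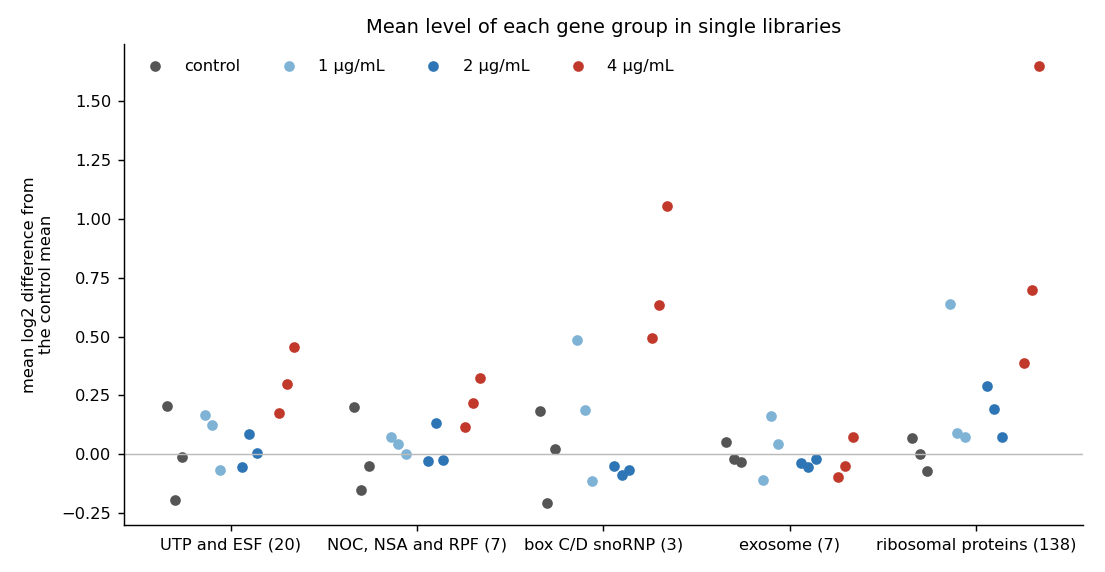
Mean log2 difference from the control mean (vertical axis) over the genes of each group (horizontal axis, number of genes in brackets) in single libraries; points of a condition run from replicate 1 to 3, left to right. Box C/D genes and ribosomal proteins at 4 µg/mL lie above all control libraries, while the UTP and ESF, NOC, NSA and RPF, and exosome groups overlap with control.

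At the lower concentrations, compared with the same 3 control libraries, no member was called by edgeR. For 2 µg/mL against control, edgeR called 0 of the 62 (0.0% of all genes) and none had an unadjusted p under 0.05, which 9.7% of all genes had. DESeq2 also called 0 (0.576% of all genes), with 1 unadjusted. limma-voom, which weights libraries by their quality, called NOP6 and NOP19 higher and NOP56 and UTP6 lower, 4 of the 62 where it called 21.7% of all genes. The log2 fold changes ran from -0.35 (NOP56) to 0.38 (RRP14), with a median of 0.06, and the groups did not overlap for 1 higher and 2 lower members (8.66% and 9.19% of all genes, 17.9% in either direction). For 1 µg/mL edgeR called 0 members (0.0% of all genes), with 1 at an unadjusted p under 0.05 (9.07% of all genes). limma-voom called 0 too (0.0338% of all genes), with 9 unadjusted. DESeq2 gave an adjusted p for only 11 of the 62 members and 983 genes and called none of the 11 (0.305% of those genes), with 9 members unadjusted. The values lay between -0.34 (RRP36) and 0.56 (NOP16), with a median of 0.05, and 6 higher and 2 lower members did not overlap with control (7.53% and 8.53% of all genes, 16.1% in either direction). The 1 was NOP16, chosen after its values were seen, with counts of 2797, 2374 and 2134 in control, 4467, 3083 and 3229 at 1 µg/mL, 2672, 3567 and 3171 at 2 µg/mL and 2952, 2935 and 3552 at 4 µg/mL. Its difference at 1 µg/mL was 0.56 ± 0.19 (adjusted p = 0.49), and at 4 µg/mL it was 0.37 ± 0.19 (adjusted p = 0.14).

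Between 4 and 2 µg/mL, a comparison of other libraries than the controls, which still entered the shared fit, 13 members were upregulated and 1 was downregulated (15.4% and 18.7% of all genes, 34.1% in either direction). The groups did not overlap for 23 higher and 5 lower members (24.5% and 27.9% of all genes, 52.4% in either direction), and 21 had an unadjusted p under 0.05 (46.8% of all genes). The largest rises were in ESF1 (0.98 ± 0.22, adjusted p = 0.0073) and NOP56 (0.97 ± 0.22, adjusted p = 0.00778). The other box C/D genes, NOP1 (0.70) and NOP58 (0.77), and NOP10 (0.55) were again called. In UTP-A, UTP4 (0.61), UTP8 (0.58) and UTP9 (0.82) passed, as did UTP6 of UTP-B (0.73) and UTP22 of UTP-C (0.81), of which only UTP4 was called against control. NOP12 (0.57) and RRP1 (0.47) of the large subunit and NOP13 (0.46) completed the list. NOP19 fell by 0.86 ± 0.17 (adjusted p = 0.00461). None of the 7 NOC, NSA and RPF genes passed by edgeR, with 1 at an unadjusted p under 0.05. NOC2 passed in 8 of the 21 fits, among them DESeq2 (39.4% of all genes called), limma-voom (58.6%) and edgeR with RLE scaling, and NSA1 in 1. Without 2 µg/mL replicate 1 or 4 µg/mL replicate 3, 4 members were called in all, without 2 µg/mL replicate 2 there were 6 and without 4 µg/mL replicate 2 there were 8. Over all genes, 1160, 905, 1080 and 1469 were called in these fits, in the same order, against 2014 with all libraries. UTP6 counted 659, 431 and 549 in control, 283, 458 and 547 at 2 µg/mL and 638, 671 and 828 at 4 µg/mL. Thus 2 µg/mL replicate 1 was the lowest of these libraries, and replicates 2 and 3 lay among the controls.

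Divided by motif, the members had medians between 0.15 and 0.29 at 4 µg/mL. Of the 32 members with both the PAC core and RRPE, 8 were upregulated at 4 µg/mL, with a median of 0.21. Of the 18 with the PAC core alone, 5 were upregulated and NOP19 fell, with a median of 0.29. The 6 with RRPE alone had a median of 0.15 and 1 call, UTP4, and the 6 with neither (ESF2, RRP42, RRP45, RRP46, UTP22 and UTP30) a median of 0.15 and no call by edgeR. Thus 13 of the 14 upregulated members had a PAC core (92.9%), as had 37 of the other 48 (77.1%). No test was made of this difference.

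Of 11 regulators of the pathway, 1 was upregulated and 1 was downregulated at 4 µg/mL (9.09% each, against 19.3% and 23.0% of all genes). DOT6, the repressor that binds PAC, counted 3419, 2470.0 and 3437 in control, 5894, 4482 and 4094 at 1, 5191, 5160.2 and 4213 at 2 and 4794, 4644 and 5075 at 4 µg/mL. All 9 treated libraries lay above the controls, and the rise was 0.64 ± 0.20 at 4 µg/mL (adjusted p = 0.0225), with 0.63 ± 0.20 at 1 and 0.64 ± 0.20 at 2 µg/mL that did not pass (adjusted p = 0.49 and 0.41). Its paralogue TOD6 had 0.46 ± 0.25 (adjusted p = 0.16) and STB3 -0.06 ± 0.16 (adjusted p = 0.77). CRF1, a co-repressor of ribosomal protein genes, counted 1184, 967 and 700.4 in control and 206, 110.1 and 72.7 at 4 µg/mL. It fell by 2.86 ± 0.35 (adjusted p = 0.000238). The activator SFP1 had 0.09, the co-activator IFH1 0.40, its DNA-bound partner FHL1 0.06, HMO1 0.28 and the kinases SCH9, TOR1 and TOR2 -0.35, -0.20 and -0.16, with adjusted p values of 0.19 to 0.75. Of the 15 RNA polymerase I genes, 5 were upregulated (33.3%, against 19.3% of all genes), with a median of 0.15.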

How the data were processed

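RNA-seq was done on 12 libraries of BY4741, 3 for each of 4 conditions. The authors trimmed the reads (Trimmomatic 0.39), aligned them to R64 with Bowtie2 2.3.2 and deposited raw counts per gene, made with HTSeq 0.9.0. Strand and overlap settings are not given in the sources used here.

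The filter on low values asked for a mean of 1 TPM, or of 1 CPM for features without a known length, and passed 5909 of 6600 features. Counts were scaled with TMM and tested in edgeR 4.0.16 (R 4.3.3) by a quasi-likelihood F test in 1 fit of the 4 conditions, with Benjamini-Hochberg adjustment over all genes and a threshold of 0.05. Standard errors were derived from each log2 fold change and its F statistic. The script was also run on simulated counts, with changes set in fewer genes than were called here at 4 µg/mL. The outcome of that run is not given here. Totals per library were 7153797 to 10270183 counts, of which 69745 to 107074 fell on the members.

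Values in all libraries are printed for the NOC, NSA, RPF and ESF members, NOP1, NOP56, NOP58, NOP10, and the 6 largest rises and falls among the other called members (1 fell). Correlations of other genes with the members, also planned, are not reported. Alternatives were DESeq2 1.42.0, edgeR with 2 groups, 2 other filters on low counts, RLE or library size scaling, limma-voom (limma 3.58.1), a replicate block, and leaving out each library. Members, roles, motifs and lists were chosen with earlier results of these data known. Sequences come from RefSeq's R64 genome. Figures were drawn with matplotlib 3.10.9.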

Additional observations from a re-analysis of the deposited data

How the results depend on the processing

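Upregulated members at 4 µg/mL numbered 14, and with library size alone 5, with a replicate block 9, and 4 to 17 when a library was left out. All upregulated genes numbered 1139, 756, 1005 and 664 to 1330, in the same order. Downregulated members numbered 1, with library size alone or edgeR on the 2 groups 2, with limma-voom 4 and without a library 0 to 2. All downregulated genes numbered 1357, 1569, 1367, 1901 and 827 to 1453, in the same order. The 14 calls between 4 and 2 µg/mL became 6 with library size alone, 25 with limma-voom, 9 with the block and 4 to 19 without a library. For all genes the 2014 calls became 1663, 3462, 1626 and 905 to 2486. At 2 µg/mL against control, limma-voom called 4 members (and 1281 of 5909 genes) where all others called 0. The members' median (0.21) was 0.0027 with library size alone and 0.14 to 0.33 without a library. The small-subunit minus large-subunit difference (0.08) was 0.0248 with limma-voom, -0.0842 by role and 0.0235 to 0.12 without a library. Among the 20 members printed in full, signs turned for NOC4 (-0.0247) and NSA2 (-0.0847) with library size alone, and for RPF1 with DESeq2 (0.0295), RLE (0.0293), limma-voom (0.0471) and when a library was left out (-0.0826 to 0.10). Over all 62 members, 20 turned in at least 1 fit. The cause of these changes was not tested. Of 400 values of these 20, 349 kept direction and call, 40 lost the call, 3 gained it and 8 turned. Replicate numbers did not pair the libraries: of 18 same-numbered pairs, 6 had deviations correlated above 0.1 (range -0.35 to 0.24), and 2 of 12 libraries correlated best with their own number, so the block values are given only as a check.

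Whether depth or the 3 flasks per condition limits the calls was not tested. Strand and overlap settings of the counting are unknown, and unannotated transcripts next to a member were not examined.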
